A study of Dugesia japonica with 16 samples.

Results

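The comparison described here set *Dugesia japonica* treated with MCTR3 against vehicle during regrowth of the head. *Dugesia japonica* is a freshwater planarian, a flatworm that rebuilds a lost head from a tail piece. In the MCTR3 group, tail pieces cut behind the eyes were held in water with MCTR3 at 10 nM. In the vehicle group, tail pieces were held in water with 0.1% ethanol. Both groups were handled alike, per the labels: worms lived at 20 °C, went 7 days without food, lost the head and were collected 48 h later. The labels give no strain, age or genotype. Each group had 4 libraries of polyadenylated RNA, so 8 of the 16 libraries of the series enter the main tests. The sources used here do not say how many worms went into a library or how much ethanol the MCTR3 water held. Levels are TPM, a length-corrected measure meant to have the same sum in every library. The deposited values do not: their sums differ between libraries by a factor that the sources used here do not explain, so a level is not an exact share of its library. The members are assembly components: transcripts that the assembler kept together share 1 identifier, and their TPM were summed. A component was kept if it reached 1 TPM or more in 4 or more of the 8 libraries, which 15397 of 16873 components did.

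MCTR3 is the cysteinyl form of the maresin conjugates in tissue regeneration, lipid mediators that macrophages make from docosahexaenoic acid. Enzymes join glutathione to an epoxide intermediate, and trimming of the peptide gives the cysteinylglycine form and then the cysteinyl form. A planarian rebuilds a head from neoblasts, dividing stem cells spread through the body, which form a blastema under the wound. Identifiers come without gene names, so no component can be given a role and no cell type, stem cell or tissue marker could be checked. At most a pair of identifiers is named in each direction for each comparison. The values describe whole tail pieces, in which fewer cells of a type and less RNA per cell cannot be told apart.

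No component passed the test for a difference between MCTR3 and vehicle after adjustment over all members. Of 15397 components tested, 0 passed (0% called; limma, Benjamini-Hochberg adjusted p under 0.05), and the lowest limma adjusted p was 0.219. Before adjustment, 1664 components (10.8%) had a p under 0.05, of which 660 were higher and 1004 lower with MCTR3. The groups did not overlap in 439 components (2.85%) with MCTR3 higher and in 673 (4.37%) with MCTR3 lower. The differences were small on the log2(TPM + 1) scale, which understates folds of rare components. The median log2(TPM + 1) change, MCTR3 minus vehicle, was -0.0054, and the middle 50% of the changes lay between -0.087 and 0.083. On that scale 14 components were higher with MCTR3 by 1.5-fold or more, 10 of them with groups that did not overlap. In the other direction 5 were lower by as much, 3 of them without overlap. For example, comp132411_c1 averaged 6.57 TPM with MCTR3 and 2.90 TPM with vehicle. Its log2 change was 0.95 with 1 added to the TPM and 1.14 with 0.1 added. With 1 added, only 1 component exceeded 2-fold, at a log2(TPM + 1) change of -1.02. It lay between 1.26 and 10.1 TPM in MCTR3 libraries, against 5.54 to 12.97 TPM in vehicle libraries, so its groups overlapped (limma adjusted p = 0.457).

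Vehicle replicate 4 stood apart from the other libraries. The TPM sums were between 1000 and 1024 kTPM (kilo-TPM) in MCTR3 libraries and between 1029 and 1129 kTPM in vehicle libraries, where replicate 4 was highest. Vehicle replicate 4 held the highest value of the 8 libraries in 32.8% of the components and the lowest in 23.8%, while no other library exceeded 16.8% and 19.3%. On the leading principal component, with 38.3% of the variance, MCTR3 libraries scored -12.7 to -1.74, vehicle replicate 4 scored 29.6 and the other vehicle libraries -2.40 to 1.04. The median difference between paired libraries was 0.104 on the log2(TPM + 1) scale within MCTR3, 0.141 within vehicle and 0.109 between MCTR3 and vehicle. Without vehicle replicate 4 the within-vehicle value was 0.0935 and the between-group value 0.102. The labels number the vehicle libraries 1 to 4 and the MCTR3 libraries 5 to 8, so treatment and position in that numbering cannot be told apart.

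Of 4 library measures compared, 0 passed adjustment. The TPM sum averaged 1013 ± 9.78 kTPM with MCTR3 and 1065 ± 43.8 kTPM with vehicle (SD, n = 4 each; exact two-sided permutation p = 0.0286, the smallest that 4 libraries against 4 allow; Benjamini-Hochberg 0.114 over the 4 measures). The groups did not overlap. The difference of -52.4 kTPM was -31.2 kTPM without vehicle replicate 4. Since TPM should sum alike in all libraries, this measures the unexplained factor per library and not an amount of RNA. The 100 most abundant components of each library held 30.2% ± 0.123 of all TPM with MCTR3 and 31.2% ± 0.730 with vehicle (exact permutation p = 0.0571, Benjamini-Hochberg 0.114). The number of components at 1 TPM or more was 15367 ± 42.4 with MCTR3 and 15277 ± 105 with vehicle (exact permutation p = 0.171, Benjamini-Hochberg 0.229). That difference of 90.25 components was 40.7 without vehicle replicate 4 and 157.75 after rescaling to a common TPM sum. The median component level was 16.6 TPM in both groups (exact permutation p = 1).

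Components were named only where the MCTR3 and vehicle groups did not overlap, so that separation was set by the choice. The component with the lowest p, comp132411_c1, was higher with MCTR3 in every library. It had 8.54, 5.58, 5.65 and 6.53 TPM in MCTR3 libraries, against 2.80, 2.37, 3.04 and 3.41 TPM in vehicle libraries. The lowest MCTR3 library lay above the highest vehicle library, and MCTR3 replicate 1 was the highest of the 8. The log2(TPM + 1) change was 0.95 (SE 0.13, 95% interval 0.65 to 1.24), the widest positive change among the members, but it did not pass adjustment (limma adjusted p = 0.219). It holds 1 transcript. comp144483_c1 had 10.8, 10.2, 10.8 and 8.71 TPM with MCTR3, against 6.28, 6.04, 7.76 and 5.79 TPM with vehicle. Its groups did not overlap either, and the nearest pair were MCTR3 replicate 4 and vehicle replicate 3. The log2(TPM + 1) change was 0.58 (SE 0.10, 95% interval 0.35 to 0.80; limma adjusted p = 0.457). It sums 2 transcripts.

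Among components that were lower with MCTR3, comp84126_c0 had the lowest p. It had 30.1, 32.1, 34.8 and 30.1 TPM in MCTR3 libraries, against 40.3, 44.9, 45.2 and 48.9 TPM in vehicle libraries. All MCTR3 libraries lay below all vehicle libraries, as the rule for naming a component required. The log2(TPM + 1) change was -0.48 (SE 0.07, 95% interval -0.64 to -0.33; limma adjusted p = 0.219). comp132697_c3, a component of 6 transcripts, had 13.01, 10.80, 13.01 and 12.24 TPM with MCTR3, against 23.1, 22.1, 18.6 and 16.4 TPM with vehicle. The groups did not overlap, with MCTR3 replicates 1 and 3 nearest to vehicle replicate 4. The log2(TPM + 1) change was -0.66 (SE 0.11, 95% interval -0.89 to -0.42; limma adjusted p = 0.372).

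Leaving out vehicle replicate 4 brought 1 component past the threshold, and it is named here because of that result, after its values were seen. comp104241_c0 had 20.5, 18.2, 20.4 and 19.7 TPM with MCTR3, against 38.6, 41.8, 31.1 and 24.2 TPM with vehicle. The groups did not overlap, and vehicle replicate 4 was the vehicle library nearest to MCTR3. With all 8 libraries the log2(TPM + 1) change was -0.73 (SE 0.14; limma adjusted p = 0.457), and without vehicle replicate 4 it was -0.87 (limma adjusted p = 0.0278). Over all members, 1232 components (8%) had an unadjusted p under 0.05 without that library. Without MCTR3 replicate 1 that number was 1015.

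The levels of the 4 components named for MCTR3 against vehicle were set beside PCTR3 and RCTR3, the protectin and resolvin counterparts, given at the same dose and time. All are cysteinyl conjugates made from docosahexaenoic acid, and they differ in the position of the cysteinyl group and in their hydroxyl groups. The members were kept on MCTR3 and vehicle levels alone, so 109 components that reached 1 TPM in all 4 PCTR3 or all 4 RCTR3 libraries are not among them. The 4 components gave 8 differences, with p-values adjusted over all members within each compound pair. They were chosen on their MCTR3 and vehicle levels, and the same MCTR3 libraries enter both differences. The p-values of these differences are therefore not independent of that choice. The same vehicle libraries stand beside all 3 compounds. In a fit of all 16 libraries, MCTR3 differed from PCTR3 in 2977 of the 15397 components (19.3%), 1500 higher and 1477 lower with MCTR3 (limma, adjusted p under 0.05). From RCTR3 it differed in 4342 (28.2%), 2261 higher and 2081 lower. The PCTR3 and RCTR3 libraries are numbered 9 to 16, so these differences cannot be told apart from position in the numbering.

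comp132411_c1 averaged 6.57 ± 1.38 TPM with MCTR3, 5.74 ± 1.83 with PCTR3, 6.48 ± 0.577 with RCTR3 and 2.90 ± 0.434 with vehicle (SD, n = 4 each). Every library of the 3 compounds lay above every vehicle library. The compounds overlapped: MCTR3 minus PCTR3 was 0.19 on the log2(TPM + 1) scale (95% interval -0.14 to 0.52; limma adjusted p = 0.415). MCTR3 minus RCTR3 was 0.0054 (95% interval -0.33 to 0.34; limma adjusted p = 0.983), and its sign turned in 4 alternatives, among them rescaling to a common TPM sum.

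The other 3 components differed between MCTR3 and both compounds. Among all members, 19.3% differed between MCTR3 and PCTR3 and 28.2% between MCTR3 and RCTR3, so such differences were common. comp144483_c1 averaged 10.1 ± 0.974 TPM with MCTR3, below the 15.8 ± 2.48 TPM with PCTR3 and the 15.9 ± 2.25 TPM with RCTR3, where vehicle had 6.47 ± 0.884 TPM. MCTR3 minus PCTR3 was -0.59 (SE 0.11; limma adjusted p = 0.0047) and MCTR3 minus RCTR3 -0.60 (SE 0.11; limma adjusted p = 0.0021). MCTR3 libraries thus lay between vehicle and the other compounds, without overlap on either side. comp84126_c0 also took a middle place, at 31.8 ± 2.23 TPM with MCTR3, against 21.8 ± 1.54 with PCTR3, 19.1 ± 5.44 with RCTR3 and 44.8 ± 3.50 with vehicle. MCTR3 minus PCTR3 was 0.52 (SE 0.14; limma adjusted p = 0.0179), lost when MCTR3 replicate 3 (0.0541) or PCTR3 replicate 2 (0.0613) was left out. MCTR3 minus RCTR3 was 0.75 (SE 0.14; limma adjusted p = 0.0019).

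comp132697_c3 was lowest with MCTR3 of all groups. It averaged 12.3 ± 1.04 TPM with MCTR3, against 24.2 ± 8.72 TPM with PCTR3, 28.2 ± 4.32 TPM with RCTR3 and 20.0 ± 3.10 TPM with vehicle (SD, n = 4 each). The highest MCTR3 library, at 13.01 TPM, lay below the lowest library of each other group. MCTR3 minus PCTR3 was -0.87 (SE 0.17; limma adjusted p = 0.0051), and MCTR3 minus RCTR3 was -1.128 (SE 0.17; limma adjusted p = 0.00068). The difference from vehicle did not pass adjustment. This component was chosen for its low MCTR3 values, which favours low p-values against the other compounds too.

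**Figure D1:**
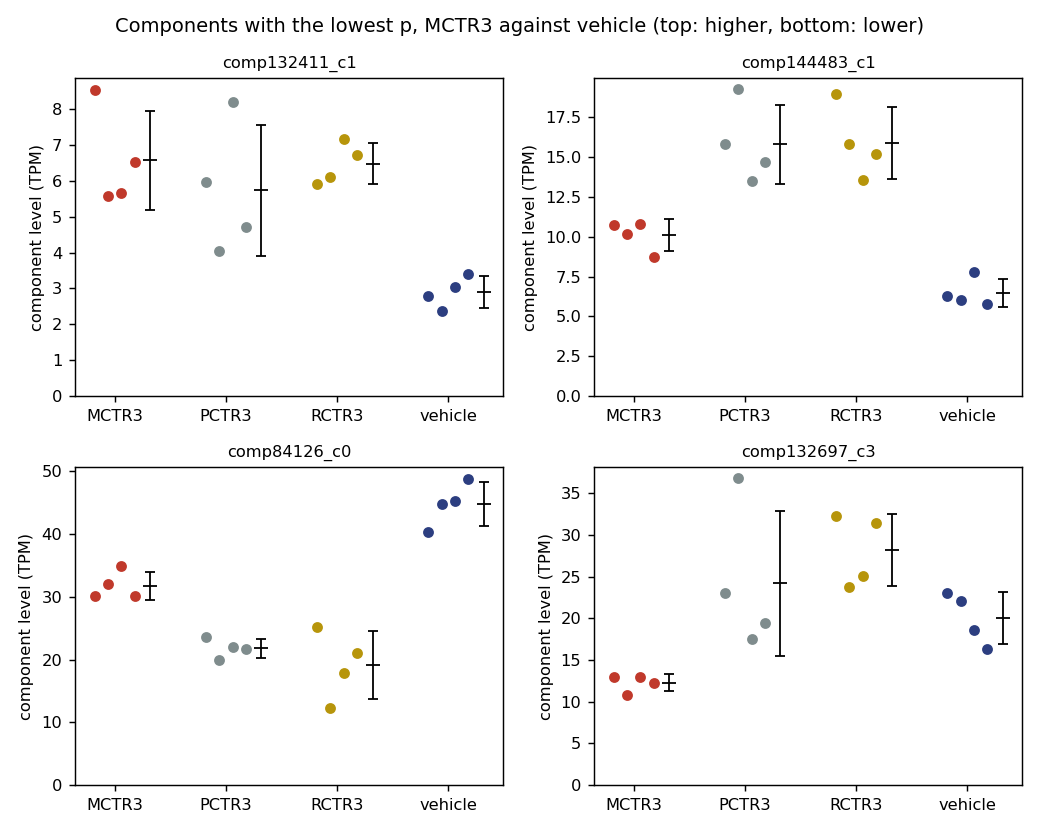
Level of the 4 named components in TPM (vertical axes from 0) in each of 4 libraries with MCTR3, PCTR3, RCTR3 and vehicle; points are libraries, bars are mean ± SD. MCTR3 libraries lie clear of vehicle libraries in each panel, which was a condition for naming a component. comp132697_c3 is lower with MCTR3 (10.80 to 13.01 TPM) than in any other library.

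On the deposited scaling, the unadjusted differences tilted with abundance, from higher with MCTR3 among rare components to lower among abundant ones. The members were put in 5 classes of equal size by mean TPM over the 8 libraries. In class 1, the rarest (median 2.42 TPM), 124 components were higher and 55 lower with MCTR3 at an unadjusted p under 0.05, together 5.81% of the class. In class 5, the most abundant (median 102 TPM), 78 were higher and 471 lower, together 17.8%. The median log2(TPM + 1) change ran downward through the classes, at 0.038, 0.024, 0.0039, -0.017 and -0.054 from class 1 to class 5. Without vehicle replicate 4 the medians were 0.021, 0.018, 0.0077, -0.0057 and -0.030. After rescaling to a common TPM sum they were 0.086, 0.087, 0.071, 0.053 and 0.017, all above 0. Components of 1, 2, 3 to 5, and 6 or more transcripts had groups that did not overlap in 7.36%, 6.66%, 7.35% and 7.38%.

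**Figure D2:**
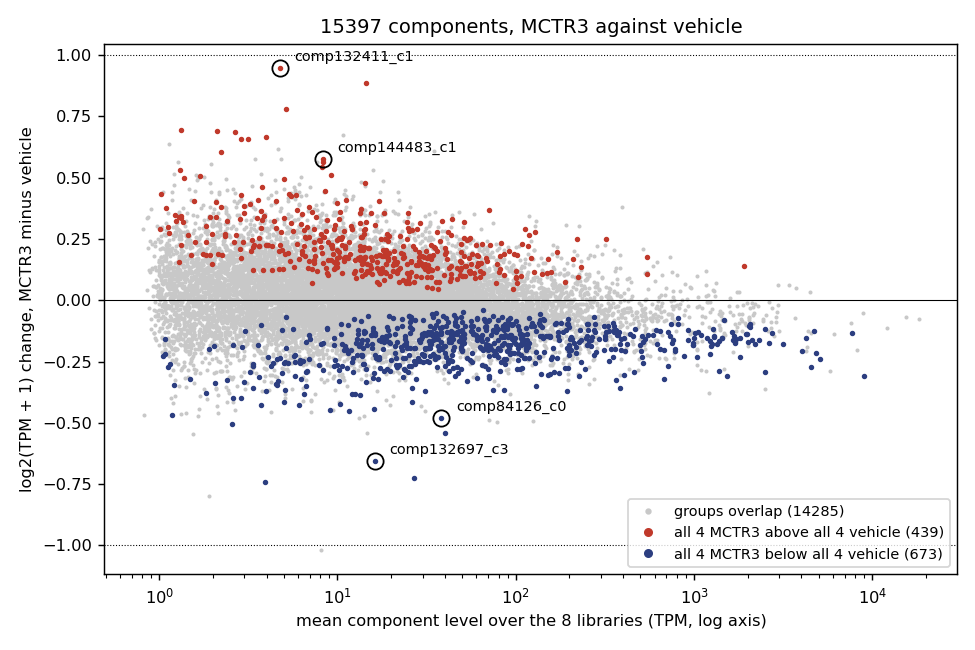
Change of each of the 15397 components, MCTR3 minus vehicle, on the log2(TPM + 1) scale, against its mean TPM over the 8 libraries on a log axis. Coloured points are components whose groups did not overlap (439 higher, 673 lower with MCTR3), and dotted lines mark 2-fold; the lower ones lie mostly among abundant components.

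The split between higher and lower components depended on which scaling of the libraries was used. As deposited, 39.7% of the components at an unadjusted p under 0.05 were higher with MCTR3. That percentage was 38.2% after median centring, 46.8% after quantile normalization and 45.3% with a median-ratio factor, so most stayed lower. Only the common TPM sum turned the majority. After rescaling every library to it, 2013 components had an unadjusted p under 0.05. Of these 1698 were higher and 315 lower, so 84.4% were higher. That rescaling moved the median change to 0.060, and 0 components passed adjustment. In class 5 the same rescaling gave 328 higher and 155 lower, and in class 1 it gave 197 higher and 27 lower.

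The 100 most abundant components, at mean levels from 1481 to 18181 TPM, were mostly lower with MCTR3. At an unadjusted p under 0.05, 0 were higher and 24 lower, together 24% against 17.8% of class 5 and 10.8% of all members. The groups did not overlap in 1 higher and 31 lower, together 32% against 13.4% of class 5 and 7.22% of all members. After rescaling to a common TPM sum, 1 was higher and 10 lower at that p, and the groups did not overlap in 1 higher and 16 lower. Their median deviation from the 8-library mean, on the log2(TPM + 1) scale, was -0.059, -0.044, -0.063 and -0.047 in MCTR3 libraries. In vehicle libraries it was 0.025, 0.026, -0.0070 and 0.181, so replicate 4 was farthest out and replicate 3 nearest to MCTR3. The median change of these components was -0.104 with all libraries, -0.032 after that rescaling, and -0.064 without vehicle replicate 4. Without that library 0 were higher and 26 lower at an unadjusted p under 0.05, against 8% of all members in either direction. In class 5, which holds these components, 78 were then higher and 358 lower, of 3080.

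**Figure D3:**
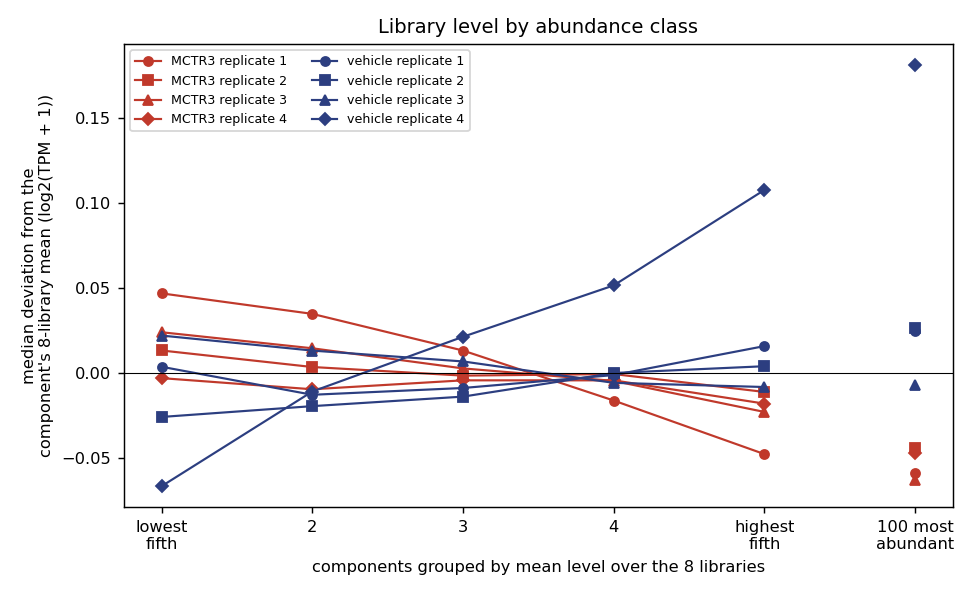
Median deviation of each library from the components' 8-library means (log2(TPM + 1)), for 5 classes of components by abundance and for the 100 most abundant; red lines are MCTR3 and blue lines vehicle libraries. MCTR3 replicate 1 runs from 0.047 in the rarest class to -0.048 in the most abundant class, and vehicle replicate 4 runs the other way, from -0.066 to 0.108.

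The spread of the 8 libraries sets the precision of each change. The 95% confidence interval of the change came from the limma fit, which draws each component's spread toward a trend over all components. It reached a median of 1.14-fold to either side of the estimate. For 94.5% of the components it lay wholly within 1.5-fold, and for 99.8% wholly within 2-fold, on the log2(TPM + 1) scale. The interval reached 1.22-fold to either side in class 1, 1.16-fold in class 2, 1.128-fold in class 3, 1.11-fold in class 4 and 1.10-fold in class 5, as medians. In class 1, 84% of the intervals lay within 1.5-fold, against 98.9% in class 5. These are folds of TPM + 1, which are narrower than folds of TPM, most of all in class 1. These intervals are not adjusted for the number of components, and a call needed more: comp132411_c1, with a log2(TPM + 1) change of 0.95 and an interval clear of 0, did not pass adjustment. The median SD of a component was 0.096 with MCTR3 and 0.126 with vehicle on the log2(TPM + 1) scale, and 0.085 in vehicle without replicate 4. It was lower with MCTR3 in 64.7% of the components, and in 43.8% when vehicle replicate 4 was left out.

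**Figure D4:**
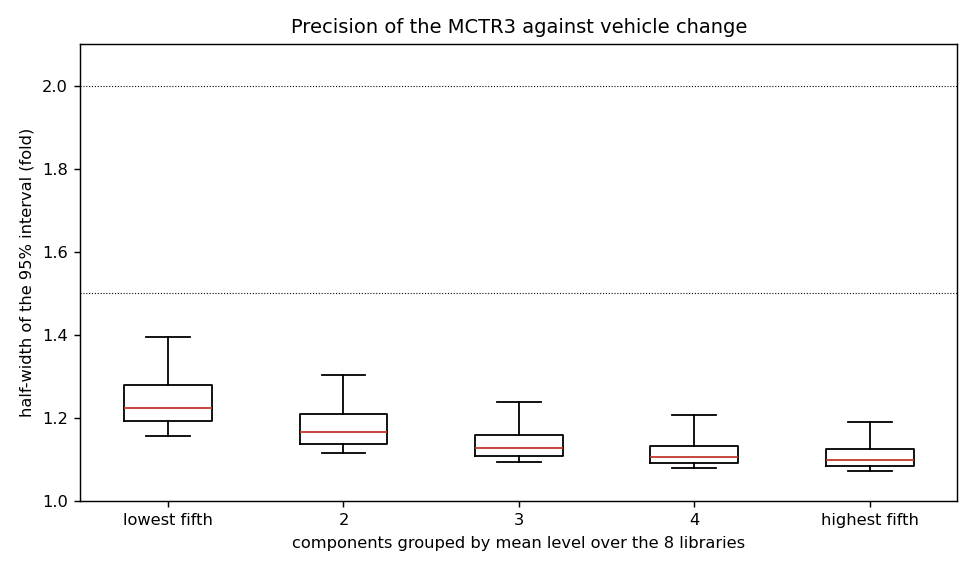
Distance in fold from the estimated change to the edge of its 95% interval, for 5 classes of components by abundance; boxes give the quartiles with the median in red, whiskers the middle 90%, and dotted lines mark 1.5-fold and 2-fold. The medians run from 1.22-fold in the rarest class to 1.10-fold in the most abundant. Folds are of TPM + 1, which narrows the intervals most in the rarest class.

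Few components lay at 1 TPM or more in 1 group and below it in the other. Of the members, 14682 were at 1 TPM or more in all 8 libraries, and 4 were at 0 in any of them. There were 2 components at 1 TPM or more in every MCTR3 library and in no vehicle library, and 1 with the reverse. All 3 were measured in both groups. The first kind averaged at most 1.89 TPM with MCTR3 and 0.752 TPM with vehicle, and the other averaged 0.958 TPM with MCTR3 and 1.35 TPM with vehicle. At the edge of the rule, 126 members reached 1 TPM in exactly 4 libraries, at mean levels of 0.813 to 1.62 TPM. Just outside it, 138 components reached 1 TPM in 3 libraries, at 0.608 to 1.42 TPM.

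Below the level of components, 1 transcript rose with MCTR3. Of 25397 transcripts with 1 TPM or more in 4 or more of the 8 libraries, 1 was called (0.00394%; limma, adjusted p under 0.05), and 2168 (8.54%) had an unadjusted p under 0.05, 921 higher and 1247 lower with MCTR3. After rescaling to a common TPM sum these were 1823 higher and 569 lower. They were 736 higher and 1443 lower after median centring, and 1027 higher and 1079 lower after quantile normalization. The transcript, comp140808_c0_seq1, had 4.45, 7.74, 3.95 and 4.79 TPM in MCTR3 libraries. In vehicle libraries it had 0.00061, 0.011, 0.0025 and 0.014 TPM, close to none. It thus passed the filter only through its MCTR3 libraries, and a transcript of that kind had to differ between the groups. With no filter on low values the limma adjusted p was 0.0384. The log2(TPM + 1) change was 2.59 (SE 0.20; limma adjusted p = 0.0065), a value that depends on the pseudocount of 1. Its component, comp140808_c0, summed to 38.8 ± 0.955 TPM with MCTR3 and 38.8 ± 2.74 TPM with vehicle (SD, n = 4 each; limma adjusted p = 0.997). The transcript was also seen in some libraries of the other compounds, at 7.52 and 3.88 TPM in PCTR3 replicates 3 and 4 and 4.66 TPM in RCTR3 replicate 1. The other PCTR3 and RCTR3 libraries had at most 0.016 TPM.

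The call for comp140808_c0_seq1 did not hold under all settings. The limma adjusted p was 0.078 with a pseudocount of 5, 0.59 with all 16 libraries in the fit, 0.54 on the deposited log2 scale and 0.0599 without MCTR3 replicate 4. Over 19 alternatives it ranged between 0.0060 and 0.65, and 13 kept the call. Transcripts of a component can share sequence, and the sources used here do not say how reads were divided among them, so levels of single transcripts are less certain than component sums.

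The other transcripts with the lowest p did not pass adjustment. comp144437_c0_seq2, of a component with 22 transcripts, had 5.34, 6.41, 8.11 and 6.79 TPM with MCTR3, against 2.06, 2.45, 1.996 and 3.23 TPM with vehicle (log2(TPM + 1) change 1.16, SE 0.16; limma adjusted p = 0.18). The groups did not overlap, as the rule for naming a transcript required. In comp144437_c0 another transcript ran the other way, at 1.64 to 3.07 TPM with MCTR3 and 4.80 to 5.12 TPM with vehicle. comp144437_c0_seq2 spread more widely with PCTR3, over 2.04 to 12.3 TPM. The component averaged 36.5 ± 1.14 TPM with MCTR3 and 33.7 ± 2.67 TPM with vehicle. comp140740_c3_seq4 had at most 5.9e-08 TPM in any MCTR3 library, against 6.15, 4.14, 2.51 and 2.20 TPM with vehicle (limma adjusted p = 0.147). comp145133_c0_seq2 had at most 0.0022 TPM with MCTR3 and was listed at 0 in MCTR3 replicate 3. It had 2.54, 4.08, 10.9 and 6.36 TPM with vehicle (limma adjusted p = 0.149). Both were present in every vehicle library and near 0 in every MCTR3 library, so both passed the filter only through vehicle libraries. With a pseudocount of 0.1, comp145133_c0_seq2 passed adjustment (limma adjusted p = 0.0386). comp145133_c0_seq2 was also seen in all RCTR3 libraries, at 2.53 to 6.27 TPM, and among PCTR3 libraries in replicate 4 at 10.02 TPM, with at most 0.085 TPM in the other PCTR3 libraries. Its component summed to 12.1 ± 0.368 TPM with MCTR3 and 13.2 ± 0.871 TPM with vehicle.

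Shares of transcripts within components were tested to ask whether MCTR3 went with another mix of transcripts at a steady total. Of 15238 transcripts in components with 2 or more tested transcripts, 2 changed their share (0.0131%; limma, adjusted p under 0.05), and 980 (6.43%) had an unadjusted p under 0.05. Both belong to comp140808_c0, which holds 2 transcripts, so they are a single observation. The component entered this test only because comp140808_c0_seq1 passed the filter through its MCTR3 libraries, and with no filter the limma adjusted p of the share was 0.0137. comp140808_c0_seq1 made up 11.1%, 19.9%, 10.2% and 12.7% of the component in MCTR3 libraries, against at most 0.033% in any vehicle library. comp140808_c0_seq2 made up the rest, at 31.1 to 35.6 TPM with MCTR3 and 36.1 to 42.6 TPM with vehicle. The change in the log2 ratio of seq1 to the rest of the component was 2.80 (SE 0.23; limma adjusted p = 0.0079). The limma adjusted p was between 0.0539 and 0.0658 without any 1 vehicle library and 0.0584 without MCTR3 replicate 4. It was 0.093 with a pseudocount of 5 and 0.65 with all 16 libraries.

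comp140740_c3 showed the reverse arrangement, which did not pass adjustment with the pseudocount of 1 and did with one of 0.1 (limma adjusted p = 0.0052). The component entered this test only because comp140740_c3_seq4 passed the filter through its vehicle libraries, so its share had to differ between the groups. With no filter and the pseudocount of 1 the limma adjusted p was 0.293. comp140740_c3_seq4 made up at most 2.6e-07% of its component in MCTR3 libraries, against 26.8%, 17.1%, 10.1% and 9.65% in vehicle libraries (limma adjusted p = 0.184). In MCTR3 libraries comp140740_c3_seq3 accounted for practically all of the component. The component summed to 22.8 ± 0.846 TPM with MCTR3 and 23.7 ± 0.9703 TPM with vehicle (SD, n = 4 each). In PCTR3 and RCTR3 libraries seq4 was seen in replicate 1 of each, at 17.0% with PCTR3 and 21.5% with RCTR3, and was at or near 0 in the other 6.

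**Figure D5:**
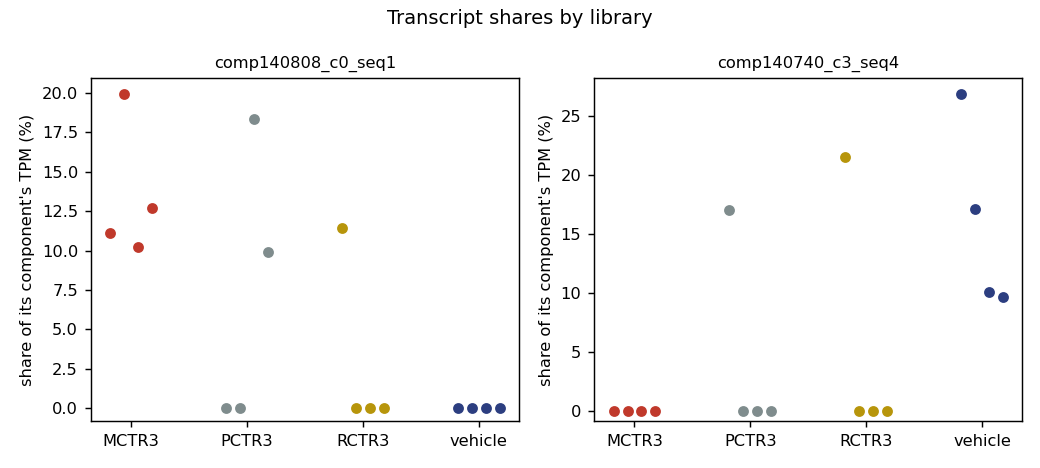
Share of its component's TPM, in percent, taken by comp140808_c0_seq1 (left) and comp140740_c3_seq4 (right) in each library of the 4 groups; points are libraries. comp140808_c0_seq1 takes 10.2% to 19.9% in MCTR3 libraries and at most 0.033% in vehicle, while comp140740_c3_seq4 takes almost none with MCTR3 and 9.65% to 26.8% in vehicle.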

How the data were processed

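The deposited values are log2 TPM, 1 column per library, which the authors made with transcript sequences of the species, per the labels. Kallisto and sleuth appear in the submitters' processing notes without version or role. The sources used here do not give the transcript set, filters or strand use. Values were turned to TPM with the lowest value of the file set to 0. TPM keeps no read depth, so depth is unknown and precision rests on 4 libraries per group. The labels do not say whether libraries came from separate cultures, so p-values measure the spread between libraries, which may be technical. 0 of 28 pairs were identical.

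Component TPM were fitted as log2(TPM + 1) with limma 3.58.1 in R 4.3.3 (8 libraries, group means, intensity trend; two-sided, adjusted over all genes or transcripts tested by Benjamini-Hochberg, threshold 0.05). Fold changes on that scale understate those of low features. Transcripts, and log2 ratios of a transcript to the rest of its component, were fitted likewise; compounds were compared in a fit of all 16 libraries. The fits were run on simulated data with independent noise in each component and library. That setting does not test shifts common to a whole library, such as that of vehicle replicate 4. Alternatives changed the pseudocount, filter, scaling, trend, libraries in the fit and replicate block, or left out 1 library. Named features are, per comparison and direction, up to 2: called features by size of change, then the lowest p, with groups that do not overlap. The members and lists were chosen with earlier results of these data known. Lists of named genes were not analysed here, for want of gene names.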

Additional observations from a re-analysis of the deposited data

Results flagged for a closer look

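Single libraries stood far from the other 3 of their group in some PCTR3 and RCTR3 values of the named transcripts (gap to the nearest library divided by the range of the group, above Dixon's 95% limit). The MCTR3 and vehicle groups had 0 such values. Of 56 groups of 4 examined, 10 met this mark, and the 10 come from 3 components. Chance gives about 1 in 20 only for separate groups not chosen on their values, which these are not. For comp140808_c0_seq1 in RCTR3, replicate 1 held 4.66 TPM and the others at most 0.016 TPM (ratio 0.998), and the ratio was 0.998 for its share of the component and for that of comp140808_c0_seq2. For comp140740_c3_seq4, replicate 1 held 4.61 TPM in PCTR3 and 6.29 TPM in RCTR3 while the others were at or near 0 (ratio 1 in each), with a ratio of 1 also for its share and that of comp140740_c3_seq3 in both groups. For comp145133_c0_seq2 in PCTR3, replicate 4 held 10.02 TPM and the others at most 0.085 TPM (ratio 0.992). The cause was not tested.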

How the results depend on the processing

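No component was called under any alternative that kept all 8 libraries (limma), and leaving out 1 library gave 0 to 1 calls, the 1 without vehicle replicate 4. The count of called transcripts was 2 with a pseudocount of 0.1 (comp145133_c0_seq2 gained), 3 with no filter on low values, and 0 with a pseudocount of 5, a filter of 5 TPM, all 16 libraries, the replicate block or the deposited log2 scale with 8 or 16 libraries (this scale, and a median-ratio factor, were chosen after seeing the data), and 0 to 1 without 1 library (0 without MCTR3 replicate 4). For transcript shares it was 4 with a pseudocount of 0.1 (both transcripts of comp140740_c3 gained), 0 with a pseudocount of 5, a filter of 5 TPM, all 16 libraries or the replicate block, and 0 to 2 without 1 library (0 without MCTR3 replicate 4 or any 1 vehicle library). The 5 TPM filter left comp140808_c0_seq1 untested; the cause of the other moves was not tested. Same-numbered MCTR3 and vehicle libraries deviated with correlations of 0.110, -0.0539, -0.0577 and -0.151. No MCTR3 library correlated best with the vehicle library of its own number. Among vehicle libraries only replicate 1 correlated best with the MCTR3 library of its number. The numbers were therefore not taken as pairs. With the replicate block 0 components, transcripts and shares were called, 1382 components had an unadjusted p under 0.05, and the limma adjusted p was 0.235 for comp140808_c0_seq1 and 0.165 for its share. Shares at an unadjusted p under 0.05 numbered 980, against 2083 of 33341 tested with no filter and 411 of 5495 with the 5 TPM filter. Components at that p numbered 1664, against 1015 to 1914 without 1 library. With 4 pairs, the smallest exact p for a library measure is 0.125. The difference in median component level, -0.00099 TPM, was 0.790 TPM once libraries shared a TPM sum and -0.0718 to 0.0673 TPM without 1 library. For comp132411_c1, MCTR3 minus RCTR3 was -0.0711 after that rescaling and -0.111 to 0.0678 without 1 library. Over all alternatives, 0 of the 4 named components were called against vehicle, and none changed sign. Depth is unknown, so counting error could not be separated from other spread.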
